A study of Mus musculus with 15 samples.

Results

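Immediate early genes are switched on within minutes of a stimulus, from transcription factors that already stand ready in the cell, and their transcripts are short-lived. In most cells growth factors and stress reach them through the ERK and p38 MAP kinase cascades, serum response factor and CREB. Several of their products are transcription factors themselves, and others, such as the phosphatase DUSP1, turn the same kinases off again. FGF23, acting through an FGF receptor and the co-receptor Klotho, activates ERK in the kidney, and Egr1 is commonly read as a marker of that response in mouse kidney.

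The 10 genes described here are Egr1, Fos, Fosb, Jun, Junb, Ier2, Ier3, Dusp1, Atf3 and Myc, chosen by name as textbook immediate early genes. They are 10 of 26823 named genes in the joined count tables, and all 10 were among the 15789 genes that passed the filter on low counts. RNA of the whole kidney was sequenced in 15 mice killed at 4 months of age, with 1 library per mouse and 5 mice in each of 3 groups. WT mice received PBS. Hyp mice, named Hyp-Duk in the design text, carry a loss of Phex, which raises circulating FGF23, and also received PBS. cFGF23-Hyp mice carry the same Phex loss and were injected into a vein at 4 weeks of age with an adeno-associated virus (AAV-cFGF23, 1e12 vector genomes per mouse). They were killed 3 months later. cFGF23, the carboxy-terminal piece of the hormone, can compete with intact FGF23 for its receptor. The virus-treated mice had no empty-vector control among these groups, so vector and cFGF23 cannot be told apart.

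Total counts ran from 13083190 to 21829906 per library, and the levels below are CPM, gene counts scaled to a common library size after TMM normalisation. Markers of proximal tubule, thick ascending limb, distal tubule, collecting duct and podocytes were present in all libraries. Phex was at 0 to 0.204 CPM throughout, WT included, so it did not check the genotype labels. The title of WT_5 says WT, but its genotype and cell type labels name the Phex knockout. Synpr, a synaptic vesicle gene picked with its values known, lay between 21.8 and 40.6 CPM in WT_1, WT_2, WT_3 and WT_4, but at 0.542 CPM in WT_5. It reached 42.0 CPM in cFGF23-Hyp_5 and 0.276 to 2.94 CPM in the other 9 libraries. The library cFGF23-Hyp_3 lay at -76.1 on the first principal component of all tested genes, against -11.9 to 17.1 for the rest. Libraries were kept in the groups of their titles, and results that turn on these 3 are also given without them. Whole kidney was sequenced, so fewer expressing cells and less RNA per cell cannot be told apart.

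The promoters are shown because most of the genes below rose and fell together from mouse to mouse. Whether shared letters bear on that was not tested. RefSeq (GRCm38.p6) was the source of the 250 bases before the start of 7 of the 10 genes, and the promoters of Egr1, Ier2 and Myc were not used here. The letters TGACG, the core of the site bound by CREB and ATF proteins, were found on either strand in 5 of these 7 windows, against 17.8% of 32851 windows of the same length. The windows of Jun and Ier3 held no match. By Pearson's r with Egr1 between mice, given below, Jun stood at 0.90 and Ier3 at 0.21, and Atf3, with a match, at 0.58. A CArG box, the element bound by serum response factor, was in 0 of the 7 and in 1.47% of all windows. With so low a share over all windows, 0 of 7 is no departure from it. Sites farther than 250 bases before the start, or with variant letters, were not searched. TATAAA was in 1 of the 7, that of Fos, and in 12.4% of all windows. Such a match is a run of letters and not a measured binding site. The 5 windows with TGACG are printed 5′ to 3′ on the strand of the gene, with each match to TGACG, or to its complement on the other strand, in capitals. They lie at chr12:85473640-85473889 (plus strand) for Fos, chr7:19310046-19310295 (minus) for Fosb, chr8:84978749-84978998 (minus) for Junb, chr17:26508473-26508722 (minus) for Dusp1 and chr1:191183334-191183583 (minus) for Atf3.
Fos: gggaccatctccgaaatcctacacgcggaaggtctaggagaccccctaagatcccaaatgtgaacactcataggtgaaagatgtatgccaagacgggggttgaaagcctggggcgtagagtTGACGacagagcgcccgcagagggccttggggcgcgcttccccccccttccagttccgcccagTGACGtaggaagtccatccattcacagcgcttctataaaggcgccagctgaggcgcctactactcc
Fosb: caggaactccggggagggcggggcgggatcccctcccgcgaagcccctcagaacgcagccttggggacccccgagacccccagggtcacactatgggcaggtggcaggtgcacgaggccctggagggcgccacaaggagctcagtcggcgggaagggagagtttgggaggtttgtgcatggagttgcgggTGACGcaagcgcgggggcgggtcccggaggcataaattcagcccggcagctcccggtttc
Junb: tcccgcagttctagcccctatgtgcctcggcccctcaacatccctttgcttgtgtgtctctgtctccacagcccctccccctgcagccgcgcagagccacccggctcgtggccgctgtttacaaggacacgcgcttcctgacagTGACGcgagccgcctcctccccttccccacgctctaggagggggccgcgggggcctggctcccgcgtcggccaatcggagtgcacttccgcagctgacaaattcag
Dusp1: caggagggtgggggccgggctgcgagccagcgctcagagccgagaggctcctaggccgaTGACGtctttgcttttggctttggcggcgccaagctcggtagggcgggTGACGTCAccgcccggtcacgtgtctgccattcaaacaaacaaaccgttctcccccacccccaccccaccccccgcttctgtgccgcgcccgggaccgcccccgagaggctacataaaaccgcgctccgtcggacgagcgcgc
Atf3: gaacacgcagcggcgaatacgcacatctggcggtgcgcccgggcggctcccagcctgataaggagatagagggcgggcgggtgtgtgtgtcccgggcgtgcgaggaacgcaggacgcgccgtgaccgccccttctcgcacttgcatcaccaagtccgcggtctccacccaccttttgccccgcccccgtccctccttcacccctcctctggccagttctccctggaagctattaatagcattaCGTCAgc
Counted from the start of the gene, the Fos matches began at -129 and -66 and its TATAAA at -33. In Dusp1 the match at -143 overlapped one on the other strand and formed the palindrome TGACGTCA. In Atf3 the match lay on the other strand, from -7 to -3.

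Egr1, a zinc finger transcription factor (ENSMUSG00000038418, chromosome 18, 34992876 to 34998037 as the deposited tables give it), differed more between mice of a group than between groups. Its level in WT_1 to WT_5 was 11.4, 11.4, 25.8, 72.5 and 130 CPM. In Hyp_1 to Hyp_5 it was 8.72, 9.30, 6.07, 75.0 and 56.3 CPM, and in cFGF23-Hyp_1 to cFGF23-Hyp_5 it was 7.79, 23.8, 18.4, 80.2 and 51.9 CPM. Libraries 4 and 5 were the 2 highest of each group, the other 3 lay far lower, and the groups overlapped almost entirely. The highest library, WT_5, was 21.4-fold above the lowest, Hyp_3. Group means were 50.2 ± 51.0, 31.1 ± 32.3 and 36.4 ± 29.4 CPM (SD, n = 5 each) in WT, Hyp and cFGF23-Hyp.

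**Figure D1:**
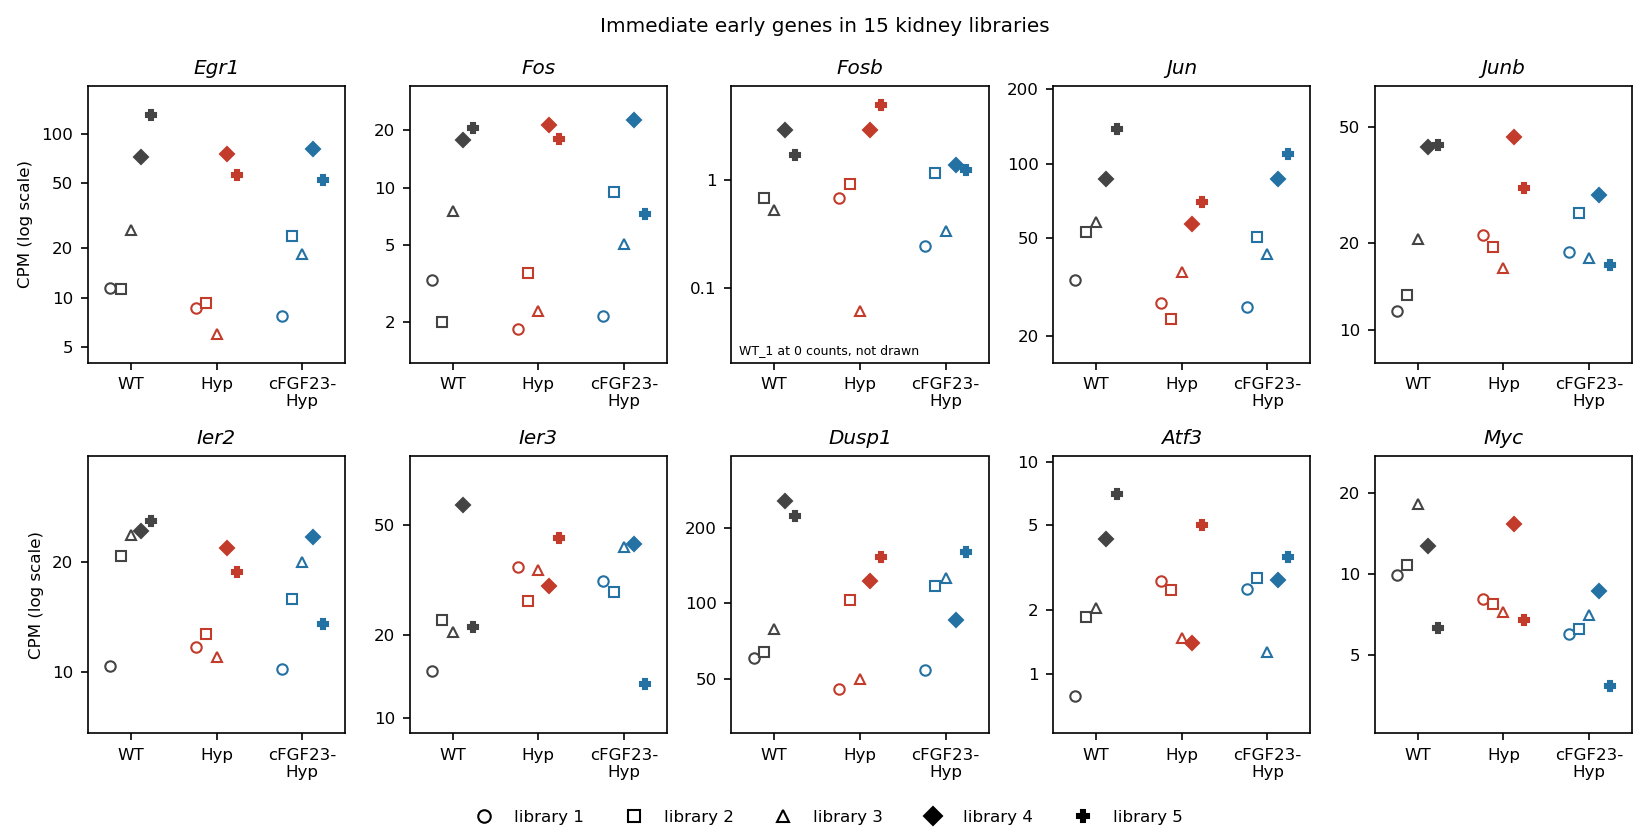
Level of each of the 10 genes in CPM (log axis, a scale of its own per gene) in 5 libraries of WT, Hyp and cFGF23-Hyp, 1 point per library. Marker shapes give the library number in the titles, with filled markers for libraries 4 and 5, which are the 2 highest of every group for Egr1, Jun and Fosb. Fosb in WT_1 had 0 counts and is not drawn.

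Fos, Fosb, Jun and Junb encode subunits of the AP-1 transcription factor. Fos (ENSMUSG00000021250, chromosome 12, 85520664 to 85524047) was at 3.31, 1.98, 7.58, 17.8 and 20.4 CPM in WT_1 to WT_5. It was at 1.84, 3.57, 2.27, 21.3 and 17.9 CPM in Hyp_1 to Hyp_5, and at 2.15, 9.48, 5.05, 22.5 and 7.26 CPM in cFGF23-Hyp_1 to cFGF23-Hyp_5. As with Egr1, libraries 4 and 5 were the 2 highest in WT and Hyp, while in cFGF23-Hyp library 2 stood above library 5. The highest library was 12.2-fold above the lowest.

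Jun (ENSMUSG00000052684, chromosome 4, 94937271 to 94940459), the most abundant per length of these 4 genes, showed a like pattern on a smaller scale. It was at 33.6, 52.9, 58.0, 86.9 and 138 CPM in WT_1 to WT_5, and at 27.3, 23.4, 36.4, 56.6 and 69.6 CPM in Hyp_1 to Hyp_5. In cFGF23-Hyp_1 to cFGF23-Hyp_5 it was at 26.1, 50.3, 42.8, 86.5 and 110 CPM. Libraries 4 and 5 were again the 2 highest in each group, with a 5.89-fold range over all 15 libraries. Group means were 73.8 ± 40.4, 42.6 ± 19.8 and 63.0 ± 34.1 CPM (SD, n = 5 each) in WT, Hyp and cFGF23-Hyp.

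Junb (ENSMUSG00000052837, chromosome 8, 85701113 to 85705347) ranged from 11.6 to 43.3 CPM in WT, 16.4 to 46.1 CPM in Hyp and 16.8 to 29.1 CPM in cFGF23-Hyp, with medians of 20.6, 21.3 and 18.6 CPM. Libraries 4 and 5 were the 2 highest in WT and Hyp, whereas cFGF23-Hyp_5 was the lowest of its group. Fosb (ENSMUSG00000003545, chromosome 7, 19036621 to 19043976) was scarce, from 0 CPM in WT_1 to 4.90 CPM in Hyp_5. Its largest count in a library was 84 reads, yet libraries 4 and 5 were the 2 highest of every group.

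Dusp1 (ENSMUSG00000024190, chromosome 17, 26724564 to 26781102), the phosphatase that inactivates MAP kinases, was at 60.4, 64.1, 79.3, 258 and 224 CPM in WT_1 to WT_5. It was at 45.5, 103, 49.7, 123 and 153 CPM in Hyp_1 to Hyp_5, and at 53.9, 118, 127, 86.1 and 160 CPM in cFGF23-Hyp_1 to cFGF23-Hyp_5. The rise of libraries 4 and 5 was clearest in WT, and cFGF23-Hyp_4 fell below libraries 2 and 3 of its group. Ier2 (ENSMUSG00000053560, chromosome 8, 85387960 to 85389483), which encodes a nuclear protein, had the narrowest range, 2.53-fold, between 10.2 CPM in cFGF23-Hyp_1 and 26.0 CPM in WT_5. Library 1 was the lowest in WT and cFGF23-Hyp, and libraries 4 and 5 were the 2 highest in WT and Hyp.

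Atf3 (ENSMUSG00000026628, chromosome 1, 190902493 to 190950236) encodes a stress-induced factor of the ATF/CREB family. It was at 0.791, 1.86, 2.04, 4.32 and 7.04 CPM in WT_1 to WT_5 and at 2.73, 2.49, 1.47, 1.40 and 5.02 CPM in Hyp_1 to Hyp_5. In cFGF23-Hyp_1 to cFGF23-Hyp_5 it was at 2.52, 2.83, 1.26, 2.76 and 3.55 CPM. Library 5 was the highest in each group, but Hyp_4, which was the highest Hyp library for Egr1, was the lowest for Atf3.

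Ier3 and Myc followed a different order. Ier3 (ENSMUSG00000003541, chromosome 17, 36132576 to 36133815), whose product acts in cell survival, was at 14.8, 22.6, 20.4, 58.6 and 21.3 CPM in WT_1 to WT_5. It ranged from 26.4 to 44.8 CPM in Hyp and from 13.3 to 42.6 CPM in cFGF23-Hyp, where library 5 was the lowest. The spread of Ier3 leaned on WT_4, without which the pooled SD of its log2 CPM was 0.46 in place of 0.60.

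Myc (ENSMUSG00000022346, chromosome 15, 61857240 to 61862223), the growth-promoting transcription factor, was at 9.92, 10.8, 18.2, 12.7 and 6.34 CPM in WT_1 to WT_5. It was at 8.11, 7.73, 7.24, 15.3 and 6.77 CPM in Hyp_1 to Hyp_5, and at 6.01, 6.26, 7.08, 8.64 and 3.86 CPM in cFGF23-Hyp_1 to cFGF23-Hyp_5. Library 5 was the lowest of its group in all 3 groups, and library 4 was the highest in Hyp and cFGF23-Hyp. Hyp_4 also carried markers of adrenal cortex, a tissue next to the kidney, at a summed 1080 CPM, with Star at 343 and Cyp11b1 at 186 CPM. In the other libraries the 4 adrenal markers summed to 3.79 to 12.8 CPM, and Cyp11b1 had a median of 0 CPM. The part of adrenal RNA in the Hyp_4 values was not tested.

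Per kilobase of gene length, the median level over the 15 libraries was highest for Dusp1 (31.2 CPM per kb) and Ier3 (26.5). Jun (16.6), Ier2 (12.4), Junb (8.95) and Egr1 (5.30) came next, followed by Fos (3.09), Myc (2.85), Atf3 (1.17) and Fosb (0.147), all as median CPM per kb. The ranges over libraries of every neighbouring pair in this order overlapped. Egr1 alone spanned 1.35 to 28.9 CPM per kb.

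The spread between mice was large for these genes. With group means removed and pooled over the 3 groups (12 degrees of freedom), the SD of log2 CPM was 1.53 for Egr1, 1.44 for Fos and 1.58 for Fosb. These values ranked 37, 50 and 28 from the top among 15789 genes, whose median SD was 0.24. Atf3 (0.84), Dusp1 (0.82), Jun (0.76), Junb (0.65) and Ier3 (0.60) had an intermediate SD of log2 CPM. Ier2 and Myc had the smallest, 0.48 each, and were still above the median gene. The median over the 10 genes was 0.79, and without WT_5 and cFGF23-Hyp_5 it was 0.70.

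Low counts widen such an SD, so the spread was also read as edgeR's biological coefficient of variation (BCV) against the trend at the same expression level. Egr1 had a BCV of 0.832, where the trend stood at 0.152, which put it at rank 13 of all tested genes by that ratio. Fos had 0.793 against 0.208, and Myc, the least variable by this measure, 0.302 against 0.211. By this ratio 9 of the 10 genes, all but Myc, were among the 5% most variable genes, and by the plain SD 6 were.

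**Figure D2:**
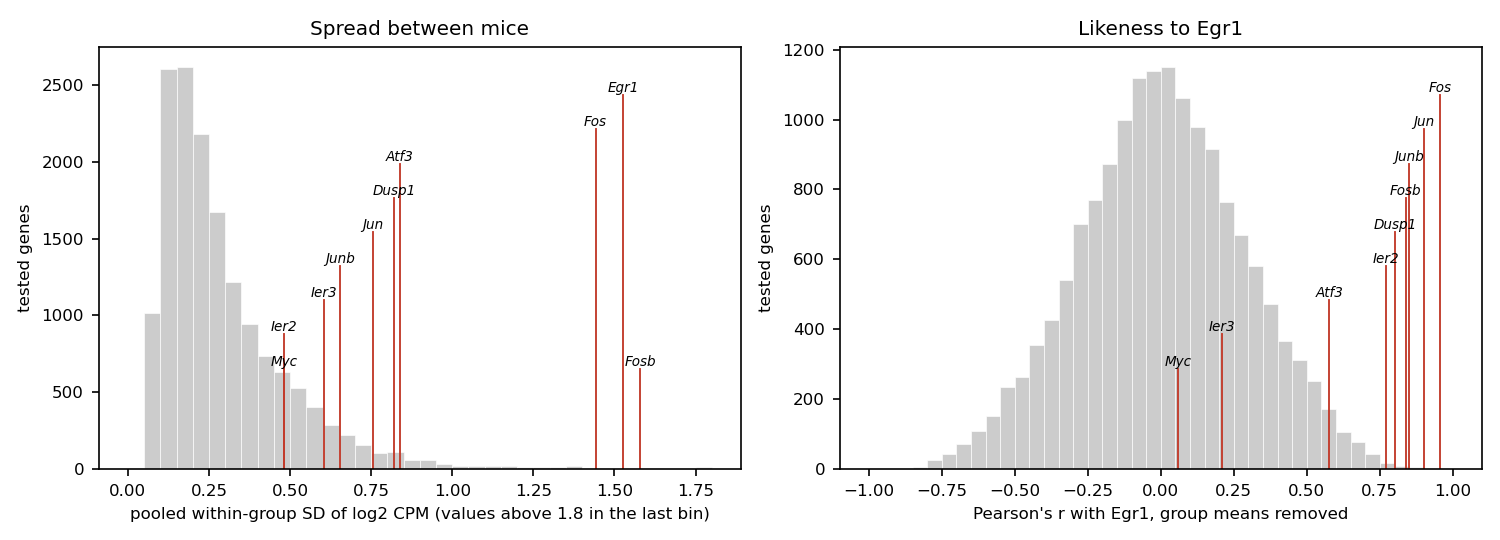
Left, pooled within-group SD of log2 CPM for 15789 tested genes (grey bars count genes, SD above 1.8 is in the last bin), with red lines at the 10 genes. Right, Pearson's r of each tested gene with Egr1 after group means were removed, with red lines at the other 9. Line heights only separate the names. Egr1, Fos and Fosb lie in the far tail of the spread, while Ier3 and Myc lie inside the bulk of the r values.

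The genes moved together, apart from Ier3 and Myc. With group means removed, Pearson's r over the 15 libraries was above 0 in 42 of the 45 pairs and above 0.5 in 26, with a median of 0.62. Egr1 and Fos were closest, with r = 0.96 and rho = 0.94 (two-sided permutation within groups, 100000 draws, p = 5e-05 and 2e-05, adjusted over 45 pairs 0.0018 and 0.0009). Without WT_5 and Hyp_3, the 2 libraries farthest from the median of Egr1, r was 0.95. Egr1 and Jun gave r = 0.90 and rho = 0.81 (permutation p = 8e-05 and 0.001, adjusted 0.0018 and 0.0095), and 0.93 without these 2.

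In all, 23 of 45 pairs had an adjusted permutation p below 0.05 by Pearson's r and 20 by Spearman's rho. None of them involved Ier3 or Myc. Ier3 reached at most r = 0.49, with Junb, and Myc at most 0.39, with Ier2. Without Hyp_4 and WT_5, the 2 libraries farthest from the median of Junb, Ier3 and Junb had r = 0.75. The next highest r of Ier3 after such a step was 0.42, with Dusp1. Myc and Ier2 had r = 0.50 without cFGF23-Hyp_1 and WT_1, the 2 farthest for Ier2. Over all 15 libraries the lowest value was -0.45, between Atf3 and Myc (permutation adjusted p = 0.222). Atf3 stood between, with r above 0.5 in 5 of its 9 pairs and an adjusted p below 0.05 in 2, those with Fosb and Jun. The first principal component of the 10 genes held 62.9% of their standardised variance.

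**Figure D3:**
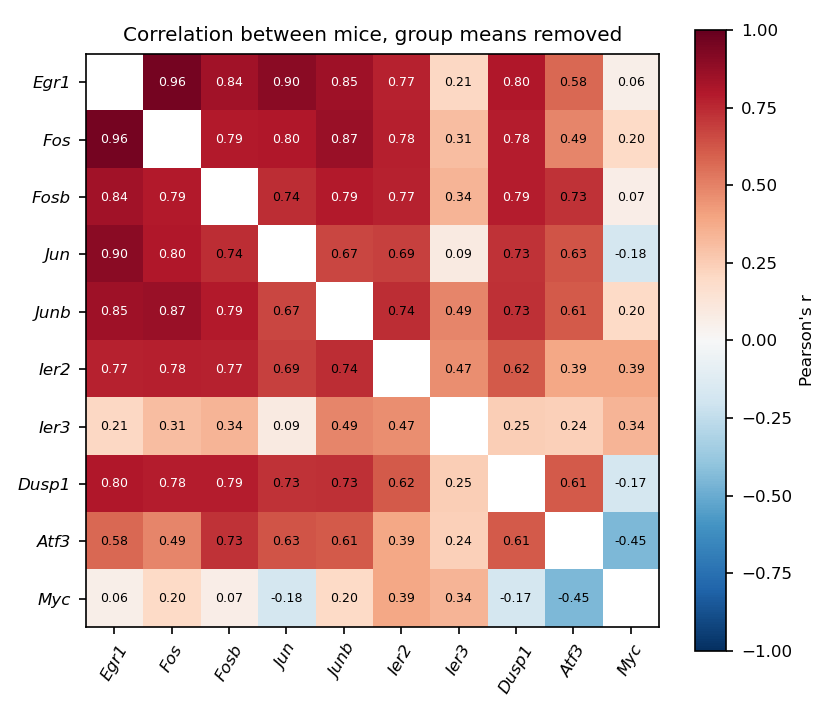
Pearson's r between the 10 genes over 15 libraries, group means removed, with the value written in each cell (colour scale from -1 to 1). Egr1, Fos, Fosb, Jun, Junb, Ier2 and Dusp1 form a block of high values up to 0.96, while the rows of Ier3 and Myc stay below 0.5.

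Among the deviations of Egr1, libraries 4 and 5 of every group formed a set apart from libraries 1 to 3, so the pairs were also computed within each set. This was added after the data were seen. Within the 9 libraries numbered 1 to 3, 43 of 45 pairs were positive and 22 had r above 0.5, with a median of 0.48. Egr1 and Fos had r = 0.90 and rho = 0.93 there (exact permutation within groups, p = 0.0231 for both, adjusted p = 0.357 for r), and no pair passed the adjustment. Egr1 and Myc, at r = 0.06 over all 15 libraries, had r = 0.70 and rho = 0.82 there (exact permutation p = 0.0556 and 0.0648). Within the 6 libraries numbered 4 and 5, 22 of 45 pairs were positive and 14 had r above 0.5, with a median of -0.05. There r with Egr1 was 0.69 for Fos, but -0.79 for Dusp1 and -0.70 for Fosb. The smallest exact permutation p over those 6 libraries was 0.25, so no pair could pass. The sets were formed after Egr1 had been seen to be high in libraries 4 and 5, which narrows its range within each set, so a lower r within a set is no test of the pooled value.

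**Figure D4:**
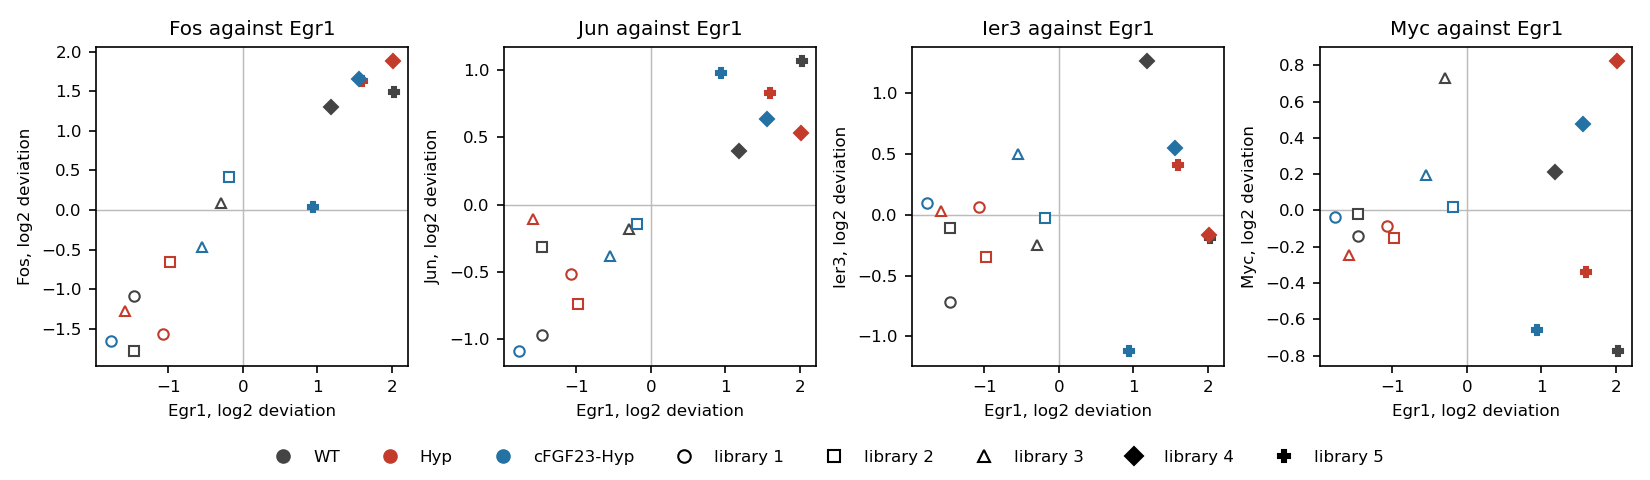
Deviation of Fos, Jun, Ier3 and Myc from the group mean (vertical axes, log2 CPM) against that of Egr1 (horizontal axes, log2 CPM), 1 point per library, colours for groups and shapes for library numbers. Fos and Jun rise with Egr1, and in the panel of Myc the libraries numbered 5 lie low although their Egr1 is high.

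Set against all tested genes, r with Egr1 above 0.5 was found in 4.33% of 15788 genes and in 7 of the other 9 immediate early genes. Fos ranked 1 and Jun 2 among all genes by r with Egr1. Junb ranked 9, Fosb 11, Dusp1 16 and Ier2 20, whereas Atf3 ranked 336, Ier3 3713 and Myc 6630. These ranks describe genes of the same 15 libraries and are not independent of each other.

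Further immediate early genes were listed with earlier results of these data known, so they are no independent evidence. Of 55 tested from that list, 30 (54.5%) had r with Egr1 above 0.5, and 7 ranked among the first 100 of 15788 genes. These 7 were Btg2, an antiproliferative gene (r = 0.90), Zfp36, whose product destabilises mRNAs (0.86), the zinc finger gene Egr2 (0.84) and the orphan nuclear receptor gene Nr4a1 (0.80). The others were Rhob (0.72), Rgs2 (0.70) and Nfkbia (0.69). Egr2 was scarce, from 0 to 3.01 CPM with a median of 0.38 CPM. Of 15 ERK feedback genes 5 had r above 0.5, led by Dusp6, an ERK phosphatase, at 0.76. None of 17 clock genes, 15 heat shock genes and 24 genes of the cascade from ERK to serum response factor did. Over all genes the share was 4.33%, so 0 in lists of these sizes is near that share.

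By r with the mean deviation of the 10 genes, the nearest of 12912 other genes were Btg2 (0.89), Il33 (0.87), Rasd1 (0.85), Nr4a1 (0.85) and Mapk1ip1 (0.82). Zfp36 (0.82), Glul (0.82), Foxc2 (0.81), Chst1 (0.81) and Dusp6 (0.80) came next by r with that mean. For Egr1 alone the nearest were Btg2 (0.90), Peg13 (0.87) and Rasd1 (0.87), and for Fos they were Peg13 (0.92), Btg2 (0.87) and Rasd1 (0.87). Jun was nearest to Dusp6 (0.83), Zfp36 (0.80) and Gsta5 (0.80), by r over the 15 libraries. Atf3 was nearest to S1pr1 (0.90), Plk3 (0.88) and Sgk1 (0.86), by the same r. Myc was nearest to Cd68, a macrophage marker (0.86), Sparc, a matrix glycoprotein gene (0.85), and Scd2 (0.83).

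Egr1 was compared with 22 library measures and summed lists, and no relation had an adjusted permutation p below 0.05. Its r was 0.20 with total counts, -0.01 with genes detected, 0.30 with the mitochondrial share and -0.01 with the share of the 50 most abundant genes. The summed further immediate early genes had r = 0.70 with Egr1 (permutation adjusted p = 0.124), and 0.56 without the 2 libraries farthest from the median of that sum. The summed ERK feedback genes had r = 0.61 (permutation adjusted p = 0.124), and 0.55 without the 2 farthest. Smooth muscle and pericyte markers had r = 0.64 and rho = 0.64 with Egr1 (permutation p = 0.0169 and 0.0218, adjusted 0.124 and 0.160), and r = 0.50 without the 2 libraries farthest from the median of the markers. All 6 of these markers were detected, and they summed to 286 to 337 CPM in WT, 295 to 440 CPM in Hyp and 285 to 392 CPM in cFGF23-Hyp. Ren1 was the most abundant of the 6, at 121 to 250 CPM over the libraries, and Tagln was scarce, at 0.186 to 1.18 CPM. The part of Ren1 in that r was not tested. Adrenal markers had r = 0.40 with Egr1 and -0.31 without the 2 farthest libraries. After that step the r of some other marker lists was higher and that of others lower. Macrophage markers went from 0.19 to 0.68, B and plasma cell markers from 0.09 to 0.67 and collecting duct markers from 0.30 to 0.65. Adipose markers went from 0.38 to 0.19 and podocyte markers from 0.33 to 0.12. Neutrophil markers went from 0.07 to -0.20, and T and NK cell markers from -0.12 to -0.47. No p-value was computed for r after that step. Neutrophil markers summed to only 0.209 to 2.87 CPM over the libraries, and T and NK cell markers to 2.27 to 4.71 CPM. Cd74 had the highest median of the macrophage markers (123 CPM) and Jchain that of the B and plasma cell markers (20.9 CPM). The part of other tissue in the levels of the 10 genes was not tested beyond these values.

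Hyp against WT asks how the kidney differs when Phex is lost. None of the 10 immediate early genes passed edgeR's quasi-likelihood test, in which 0.342% of all tested genes were called at an adjusted p below 0.05. None had an unadjusted p below 0.05 either. The log2 fold change was -0.69 ± 0.80 (SE) for Egr1, with a 95% interval of -2.38 to 1.00 and an adjusted p of 0.743 (edgeR). Fos stood at -0.13 ± 0.74, with an interval of -1.70 to 1.44. The smallest adjusted p was 0.418 (edgeR), for Jun at -0.79 ± 0.41, whose interval ran from -1.66 to 0.08.

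In that comparison 3 of the 10 estimates were positive and their median was -0.33, where the median of all tested genes was 0.00. The direction of that median rested on WT_5. Without WT_5 it was 0.11 with 6 positive, and without WT_5 and cFGF23-Hyp_5 it was also 0.11 with 6 positive. Egr1 then stood at 0.03 without WT_5, and at 0.64 with WT_5 placed in Hyp, where its genotype label puts it. DESeq2 and limma-voom also called 0 of the 10, against 2.11% and 0.481% of all genes. In the authors' deposited table the smallest adjusted p of the 10 was 0.196, for Ier2 at a log2 fold change of -0.47.

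cFGF23-Hyp against Hyp asks what the virus changed in mice without Phex. None of the 10 genes was called by edgeR, where 0% of all tested genes were, and none had an unadjusted p below 0.05. Egr1 was at 0.23 ± 0.80 (interval -1.47 to 1.92) and Jun at 0.56 ± 0.41 (interval -0.31 to 1.43), as log2 fold change ± SE. Myc was at -0.50 ± 0.28, with an adjusted p of 0.531 (edgeR), and at -0.23 ± 0.26 without Hyp_4. Of the 10 estimates 4 were positive, with a median of -0.01. DESeq2 and limma-voom called 0 of the 10, against 0.708% and 0.0127% of all genes. In the authors' deposited table Myc had a log2 fold change of -0.50 and an adjusted p of 0.610.

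cFGF23-Hyp against WT shares its libraries with the other comparisons. Again none of the 10 genes was called by edgeR, where 0% of all tested genes were, and 1 had an unadjusted p below 0.05. That gene was Myc, with group means of 11.6 ± 4.35 CPM in WT, 9.03 ± 3.54 in Hyp and 6.37 ± 1.74 CPM in cFGF23-Hyp (SD, n = 5 each). Its log2 fold change was -0.86 ± 0.28 (interval -1.46 to -0.27), with an adjusted p of 0.707 (edgeR). Over 25 alternative settings that adjusted p ran from 0.107 to 1.00. Egr1 was at -0.47 ± 0.80, with an interval of -2.15 to 1.22, and ran from -0.99 to 0.28 over the 25 settings. Of the 10 estimates 1 was positive, with a median of -0.33. The direction of that median also rested on WT_5: without WT_5 it was 0.03, with 5 positive. DESeq2 and limma-voom called 0 of the 10, against 0.0112% and 0% of all genes.

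**Figure D5:**
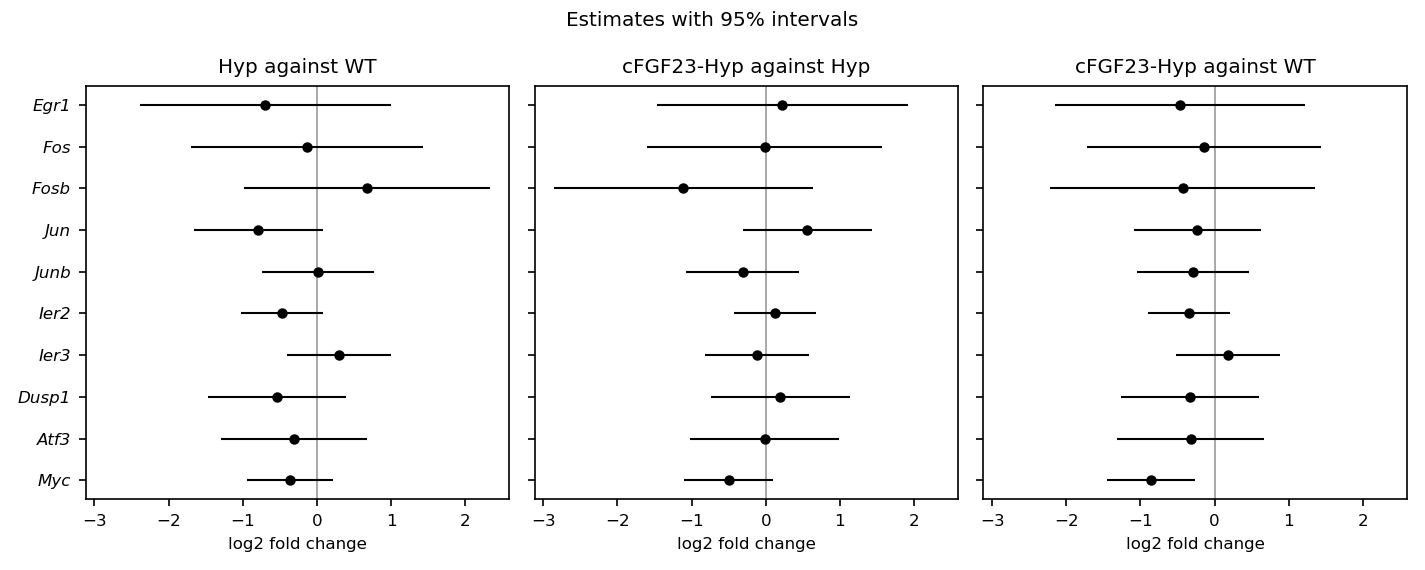
Log2 fold change of the 10 genes (points) with 95% intervals (lines) from edgeR, with 1 panel for each of the 3 comparisons. All intervals cross 0 except that of Myc in cFGF23-Hyp against WT, and those of Egr1, Fos and Fosb are the widest.

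Over all tested genes, 13.4%, 10.4% and 5.73% had an unadjusted p below 0.05 in Hyp against WT, in cFGF23-Hyp against Hyp and in the comparison of cFGF23-Hyp with WT, and the list counts below stand against these shares. The 55 further immediate early genes had 0 called by edgeR in each comparison, with 6, 5 and 2 at an unadjusted p below 0.05 in the order above. Sik1, a kinase gene, had the smallest adjusted p among them in Hyp against WT, with a log2 fold change of 0.60 ± 0.18 (edgeR adjusted p = 0.167). Of 15 ERK feedback genes 2 rose in Hyp against WT, where edgeR called 0.342% of all tested genes. They were Etv4 (1.61 ± 0.27, adjusted p = 0.0223, edgeR) and Etv5 (0.82 ± 0.16, adjusted p = 0.0421, edgeR). Etv4 was scarce, from 0.575 to 4.05 CPM with a median of 1.15 CPM. Both Etv4 and Etv5 encode ETS transcription factors that FGF receptor signalling induces. The estimates of 14 of the 15 were positive there, with a median of 0.37 and 9 at an unadjusted p below 0.05, while 50.6% of all tested genes were positive. Of the 15, 3 were positive in cFGF23-Hyp against Hyp, with a median of -0.25 and 0 called by edgeR (3 at an unadjusted p below 0.05). In cFGF23-Hyp against WT 0 were called by edgeR, 2 had an unadjusted p below 0.05 and the median was 0.17. Markers of some other cell types had estimates of the same signs. All 6 endothelial markers had positive estimates in Hyp against WT (median 0.38) and negative ones in cFGF23-Hyp against Hyp (median -0.34). So did all 4 podocyte markers (medians 0.42 and -0.28). None of these 10 markers was called by edgeR in either, with 7 at an unadjusted p below 0.05 in each. Not every list did so: of 6 proximal tubule markers 2 were positive in Hyp against WT and 3 in cFGF23-Hyp against Hyp. Of 3 distal convoluted tubule markers 1 and 2 were positive, in the same order. The part of these cell types in the ERK feedback values was not tested. Over 25 alternative settings the log2 fold change ran from 1.34 to 1.8 for Etv4 and from 0.76 to 0.91 for Etv5. Their calls held in 18 and 14 of these settings, and Etv4 lost its call without any 1 of WT_1, WT_3, WT_4, Hyp_1, Hyp_2 or Hyp_3. Both lost it with WT_5 placed in Hyp. Etv5 also lost its call without any 1 of WT_1 to WT_4, any 1 Hyp library or cFGF23-Hyp_1. Neither followed Egr1 from mouse to mouse: r with Egr1 was -0.47 for Etv4 and 0.09 for Etv5. In Hyp against WT, the 15 heat shock genes all had negative estimates, as did 49.4% of all tested genes, with a median of -0.52 and 0 called by edgeR, 6 of them at an unadjusted p below 0.05. In the other 2 comparisons they had medians of 0.20 and -0.32, with 0 and 2 at an unadjusted p below 0.05 and 0 called by edgeR. The 17 clock genes had 0 called by edgeR in each comparison and 4, 3 and 5 at an unadjusted p below 0.05, in the order of the comparisons above. The 24 genes of the cascade from ERK to serum response factor also had 0 called by edgeR in each, with 2, 1 and 1 at an unadjusted p below 0.05.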

How the data were processed

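Kidney RNA was turned into libraries with the NEBNext Ultra kit, per the labels' protocols. Whether strand was kept is not stated, so reads of overlapping antisense genes cannot be told apart. The authors deposited 2 tables, for Hyp with WT and for cFGF23-Hyp with Hyp, of raw read counts per gene. The deposited tables also hold the authors' log2 fold change and p-value per gene and a gene length. A further 40 per-sample columns stayed unused. No source used here names the aligner, counter or annotation. mm10 is the build in the submitters' processing notes, but 538 of 25727 genes (2.09%) start where GRCm38 puts them, so gene positions are those of the deposited tables.

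The tables were joined on gene ID (27122 shared genes, with equal Hyp counts), without 299 unnamed entries holding 0.219% to 0.363% of a library. Counts were tested with edgeR 4.0.16 (R 4.3.3; glmQLFit, glmQLFTest, TMM, filterByExpr) in 1 fit of 15 libraries, with Benjamini-Hochberg adjustment over 15789 genes and a call at an adjusted p below 0.05. DESeq2 1.42.0 and limma 3.58.1 (voom) were alternatives. In simulated data for Hyp against WT (15612 genes), 90% of 2-fold and 100% of 4-fold changes were called; these rates are over genes in general and do not carry over to the 10 genes, most of which vary more. Correlations used log2 CPM (prior count 2) minus group means. Reads carry no molecular identifiers, and no interval for a single library is given. Libraries of a group differed by a chi-square per degree of freedom of at least 8.98, so none was a copy of another of its group. Pairs of libraries from different groups were not checked in this way.

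All 10 members are named, with the called genes of the other lists, up to 3 per list and comparison by adjusted p, and the nearest genes by r. One of the genes this rule selects was left out of the text. The members and lists were chosen with earlier results of these data known.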

Additional observations from a re-analysis of the deposited data

Results flagged for a closer look

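In 2 of 30 sets of 5 libraries (10 genes in 3 groups), 1 library lay apart from the other 4 by Dixon's ratio, the gap to the nearest library over the range of the group; chance gives about 1 in 20. Ier2 in WT_1 was low, at 10.4 CPM against 20.9 to 26.0 CPM in the other WT libraries (ratio 0.761). WT_1 was also the lowest WT library for Fosb, Jun, Junb, Ier3, Dusp1 and Atf3. Myc in Hyp_4 was high, at 15.3 CPM against 6.77 to 8.11 CPM in the other Hyp libraries (ratio 0.779). Hyp_4 is the library with 1080 CPM of summed adrenal markers, and their part in its Myc level was not tested.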

How the results depend on the processing

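The count of 0 members called held in each comparison under all 25 alternatives. Of 750 member fold changes under these alternatives 11 reversed, leaving out 60 sign changes smaller than 1 SE. In Hyp against WT, with WT_5 placed in Hyp, Egr1 moved to 0.64, Jun to 0.01 (0.012846), Dusp1 to 0.01 (0.0102548) and Atf3 to 0.55 on the log2 scale. With each library left out, Atf3 ran from -0.68 to 0.19 in Hyp against WT. It moved to 0.19 without WT_5, without WT_5 and cFGF23-Hyp_5, and without these and cFGF23-Hyp_3 (0.191799, 0.191009 and 0.185952). In cFGF23-Hyp against WT it ran from -0.56 to 0.18 with each left out. There Atf3 moved to 0.18 (0.176886) without WT_5, 0.18 (0.176099) with WT_5 in Hyp and 0.23 without the 3 libraries, where Junb moved to 0.13. The cause was not tested.

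The background moved more. Genes called in Hyp against WT (54) became 334 by DESeq2, 516 with only the 2 groups fitted, 97 with WT_5 in Hyp, 228 without WT_5 and cFGF23-Hyp_5, 1527 without the 3, and 7 to 345 with each library left out. In cFGF23-Hyp against Hyp (0, with 1647 at an unadjusted p below 0.05) they became 116 by DESeq2, 2 by limma-voom, 67 and 63 without the 2 and the 3 libraries, and 0 to 25 with each left out. In cFGF23-Hyp against WT (0, with 905 at an unadjusted p below 0.05) they became 3 by DESeq2, 1 with WT_5 in Hyp, 177 and 583 without the 2 and the 3, and 0 to 3 with each left out. The r of Fos with Egr1 ran from 0.948 to 0.975, the pairs with r above 0.5 from 25 to 30 and the median SD from 0.714 to 0.821 with each left out. Single SDs moved in 2 of 180 cases, Fosb to 2.06 with a prior count of 0.5 and Ier3 without WT_4.

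With the replicate number as a block, 15 genes were called in Hyp against WT and 0 members in any comparison. Jun in Hyp against WT was then -0.74 ± 0.13 (edgeR adjusted p = 0.0613) and Egr1 -0.78 ± 0.31 (edgeR adjusted p = 0.335), against standard errors of 0.41 and 0.80 without the block. Under the block, r of Fos with Egr1 was 0.87 (permutation adjusted p = 0.067) and 16 pairs had r above 0.5 in place of 26. The numbers were not taken to pair mice: same-numbered libraries correlated above 0.1 in 4 of 15 pairs (-0.17 to 0.18), and 6 of 30 best matches were of the same number. Without the block, the interval of Egr1 in Hyp against WT was -2.38 to 1.00 on the log2 scale.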

Other observations

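The order of libraries within a group was tested after it had been seen. In the edgeR fit with group and replicate number, the 4 number coefficients together passed an adjusted p below 0.05 in 2 of 15789 genes (0.0127%), and these 2 were Jun (F = 36.0, adjusted p = 0.0133) and Egr1 (F = 26.1, adjusted p = 0.0403). Fos came to F = 11.5 with an adjusted p of 0.342, and the other 7 members had adjusted p-values of 0.865 to 0.981. The mean log2 deviation of the 10 genes from their group mean was 0.94 and 0.85 in WT_4 and WT_5, 0.77 and 0.88 in Hyp_4 and Hyp_5, and 0.66 and 0.15 in cFGF23-Hyp_4 and cFGF23-Hyp_5. In libraries numbered 1 to 3 it ran from -1.14 in WT_1 to 0.13 in cFGF23-Hyp_2. The labels give no batch, date, cage or time of killing, and do not say what the number stands for. Since the pattern was noticed in the same libraries, these p-values describe it and are no independent evidence.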
